A study of Mus musculus with 66 samples.

Results

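Cells depleted of Ski8 (siSki8) were compared with cells given a control siRNA (siCtrl) in RNA-seq and in 3'READS, a method that counts polyadenylated RNA molecules at their 3' ends. The comparison used the siSki8 library of batch 2, the siCtrl library of batch 2 and, as a second control, the siCtrl library of batch 1 in each assay, which made 6 samples of the 66 in the series. All 6 came from C2C12 cells, an immortalized mouse myoblast line, kept as myoblasts and transfected for 48 h with 50 nM siRNA, so the controls carried the transfection too. The siPaf1 and siCdc73 libraries of both batches, 4 samples for each knockdown, entered the statistical fits and are otherwise given only for comparison. The siSki8 group had 1 library per assay and therefore no replicate. The labels do not say whether batches were separate cultures, or whether both assays used RNA of the same culture, so p-values measure only the spread between these libraries.

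Ski8, a protein of WD40 repeats encoded by Wdr61, works in the nucleus and in the cytoplasm. In the nucleus it is a subunit of the Paf1 complex, which travels with RNA polymerase II and links elongation to histone modification and to 3' end processing. In the cytoplasm it joins the helicase Skiv2l and the scaffold Ttc37 in the Ski complex, which feeds RNA into the exosome for decay from the 3' end. Poly(A) sites are usually preceded by the hexamer AATAAA or its variant ATTAAA, which the cleavage machinery binds. Cleavage at a proximal site of the last exon gives a shorter 3'UTR (3'UTR-APA), and cleavage in an intron or an internal exon gives a truncated transcript (CDS-APA).

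The RNA-seq libraries of siCtrl held 6390214 (batch 1) and 5834180 (batch 2) counts in genes, and the siSki8 library held 8160386. In 3'READS the corresponding totals outside upstream antisense sites were 7373720, 9791152 and 8284811 reads. Of 7701 genes present in both tables, 4748 had a mean of at least 20 reads over the 3 libraries in each assay and are called measured below. The 2 siCtrl libraries stood apart from each other: they differed at least 2-fold in 942 of the measured genes (19.8%) in RNA-seq and in 1246 (26.2%) in 3'READS, although only 166 (3.5%) did so in the same direction in both assays. The SD of the log2 ratio over genes was 0.58 in RNA-seq and 0.65 in 3'READS for siSki8 over siCtrl of its own batch. It was 1.02 and 1.14 over siCtrl of batch 1, and 0.79 and 1.00 for one control over the other. Each result is therefore given against both controls. Ratios are of counts scaled to library size (CPM, on the TMM scale of edgeR), and log2 ratios have a prior count of 2 reads. Myoblast markers were present, with 385, 377 and 278 RNA-seq reads for the myogenic factor Myf5 and 5652, 6037 and 6644 for the cadherin Cdh15 in siCtrl batch 1, siCtrl batch 2 and siSki8. Myod1, by contrast, had only 2, 4 and 3 reads in 3'READS.

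Wdr61, the targeted gene (chr9:54562542-54595757, minus strand, mm9), was low after siSki8 in both assays. It had 356 RNA-seq reads in siCtrl batch 1 and 768 in siCtrl batch 2, against 41 in siSki8. In 3'READS the gene had 48 and 219 reads in the controls and 12 after siSki8. The siSki8 libraries lay below both controls in each assay, and the controls themselves differed, with batch 2 the higher. The level fell 21.6-fold in RNA-seq (95% interval 15.8 to 30.4) and 15.2-fold in 3'READS (8.51 to 29.8) against siCtrl of the same batch, and 8.34-fold and 5.28-fold against batch 1. With the batch as a block, explained below, the log2 change was -4.16 in RNA-seq (SE 0.42, edgeR adjusted p = 1.08e-07) and -3.65 in 3'READS (SE 0.58, adjusted p = 0.0275). The intervals, like all those given for folds, cover counting error only. In RPKM, which allows levels to be compared between genes, Wdr61 went from 21.8 and 53.6 to 2.04.

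The study's siRNA sequence occurs in the Wdr61 reference transcript, in exon 9 of 11. The 19 transcript letters of that place are shown because they place the knockdown relative to the poly(A) sites, with the 7 letters that pair with bases 2 to 8 of the guide strand (the seed) in capitals, at chr9:54568097-54568103 on the minus strand. The 30 bases before the main poly(A) site (chr9:54564970-54564999, minus strand) and before a site in intron 7 (chr9:54571642-54571671) follow, with the poly(A) signal in capitals where 1 was found.
Wdr61 siRNA place: ggtgttgaatgTTGCGTTc
Wdr61 main site: ttttaatgtaAATAAAgcattcttaatgca
Wdr61 intron 7 site: atacttttttagtaaagtaggttgcttttg

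The main site, cleaved at 54564969 and 20 bases after its AATAAA, had 48 and 214 reads in the controls and 3 after siSki8. The authors' table classes it with the last exon, and it lies in an annotated exon of the gene. In the 11-exon reference transcript used for numbering here, the same place falls in intron 10. The site in intron 7, which lies upstream of the siRNA place and has neither hexamer in its window, had 0 and 5 reads in the controls and 9 after siSki8. The siSki8 library was thus the lowest of the 3 at the main site and the highest, on few reads, at the one in intron 7. Ends in intron 7 made up 9 of the 12 Wdr61 reads after siSki8 (exact Clopper-Pearson 95% interval 42.8 to 94.5%), against 0 of 48 in batch 1 (upper bound 7.40%) and 2.28% (0.745 to 5.25) in batch 2. Among 1766 genes tested for CDS-APA, this was the only one whose internal share rose in edgeR's quasi-likelihood test with the batch as a block (Benjamini-Hochberg adjusted p = 0.00317), and without the block none did.

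**Figure D1:**
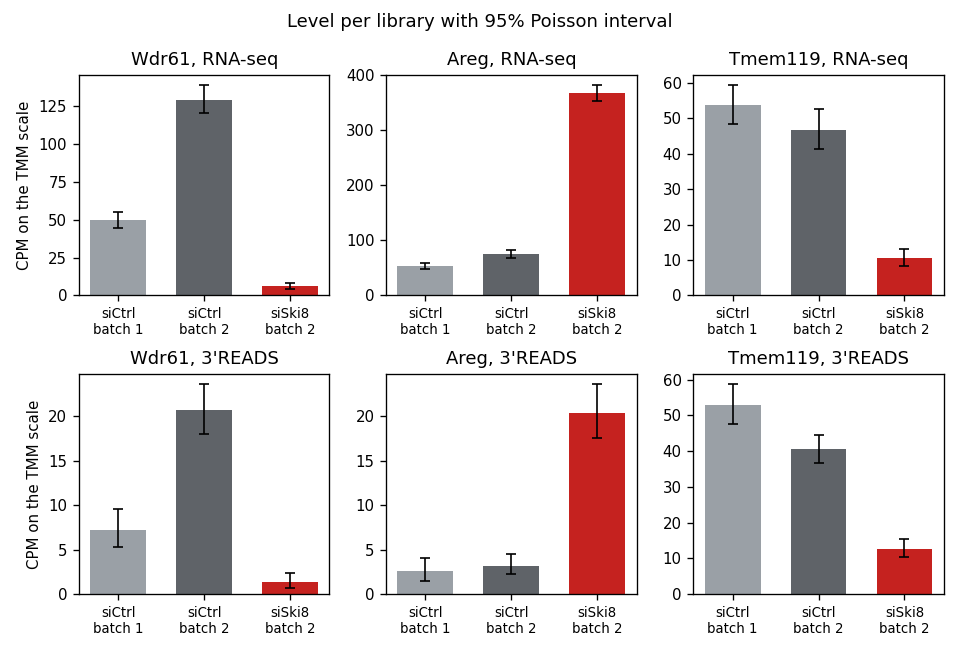
Level of Wdr61, Areg and Tmem119 in CPM on the TMM scale (vertical axis) in the siCtrl libraries of batch 1 and batch 2 and in the siSki8 library, with RNA-seq in the upper row and 3'READS in the lower row. Bars are single libraries and whiskers are 95% Poisson intervals of the reads; Wdr61 and Tmem119 are below, and Areg above, both controls in each assay.

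A gene was counted as higher or lower after siSki8 when all 4 ratios (each assay against each control) were at least 2-fold in that direction. By this rule 39 of the 4748 measured genes were higher (0.821%) and 53 were lower (1.12%), and these 92 genes are described below. Their selection used the ratios themselves, so the ratios are a description. With no limit on size, 1033 genes (21.8%) were higher and 838 (17.6%) lower in all 4 ratios, and at 4-fold 2 were higher (Areg and Cpn1) and 4 lower. When libraries were scaled by their totals alone, without TMM, 17 genes were higher and 84 lower. The controls were within 2-fold of each other in both assays for 27 of the 39 higher and 30 of the 53 lower genes.

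The assays count different parts of a transcript, the coding region in RNA-seq and the 3' end in 3'READS, and moved together in the genes with large ratios. In RNA-seq alone, 121 genes (2.55%) were at least 2-fold higher than both controls. Of these, 108 were also higher than both controls in 3'READS and 0 were lower than both, while among all measured genes 36.2% were higher than both. Of the 147 genes (3.1%) at least 2-fold lower in RNA-seq, 129 were lower and 1 higher than both controls in 3'READS, against 30.9% lower among all. The 39 genes were 32.2% of the 121 and 28.9% of the 135 that 3'READS alone gave (2.84%). The 53 were 36.1% of the 147 and 29.4% of the 180 that 3'READS alone gave (3.79%). No gene was 2-fold higher in one assay and 2-fold lower in the other. Across the 4748 genes the log2 ratios of the assays had a Pearson correlation of 0.654 against siCtrl batch 2 and 0.330 against batch 1, and 0.088 for control over control. In these values each assay shares 1 control and 1 siSki8 library over all genes.

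**Figure D2:**
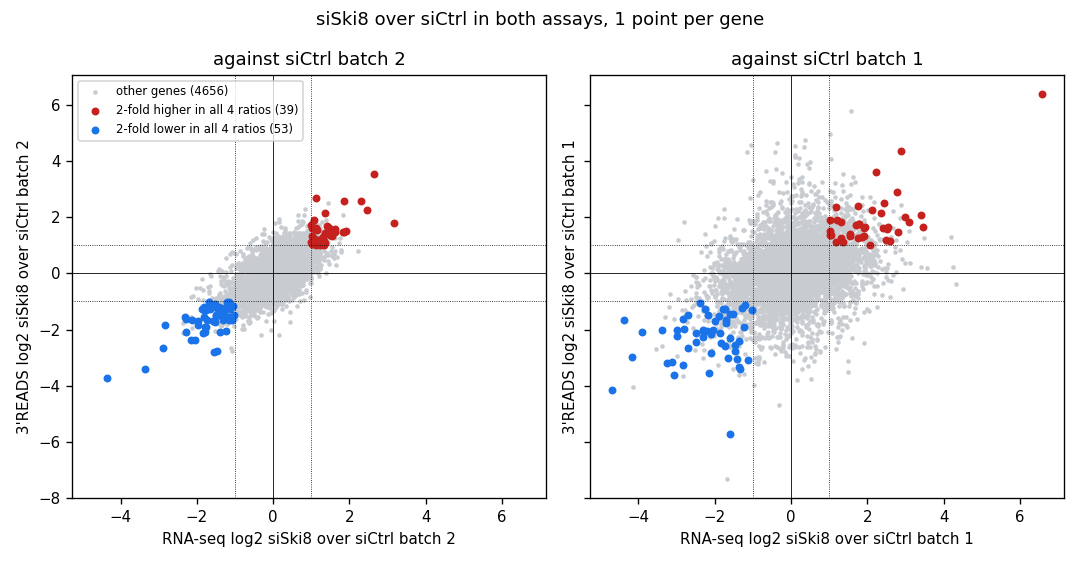
Each point is 1 of the 4748 measured genes, with the log2 ratio of siSki8 over siCtrl in RNA-seq on the horizontal axis and in 3'READS on the vertical axis, against siCtrl batch 2 (left) and batch 1 (right). The 39 genes 2-fold higher in all 4 ratios are red and the 53 lower ones blue; the cloud is wider against batch 1.

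In edgeR's quasi-likelihood test without a batch term, 0 of 6521 genes in RNA-seq and 0 of 12579 in 3'READS passed a Benjamini-Hochberg adjusted p under 0.05. At an unadjusted p under 0.05, 160 genes were higher and 201 lower in RNA-seq, and 178 and 241 in 3'READS. DESeq2 called 3 higher and 2 lower in RNA-seq and 0 in 3'READS. The single siSki8 library is assumed in these fits to vary as the other groups do. With the batch, which the labels give, as a block, edgeR called 191 genes higher (2.93%) and 163 lower (2.5%) in RNA-seq, and 10 higher (0.0795%) and 9 lower (0.0715%) in 3'READS. On library size alone the blocked RNA-seq calls split into 85 higher and 396 lower. The blocked calls also depended on single libraries of the other knockdowns: RNA-seq gave 983 without siPaf1 batch 1, 1036 without siPaf1 batch 2, 202 and 201 without siCdc73 batch 1 and 2, and 161 and 120 without siCtrl batch 1 and 2.

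With the block, 34 of the 39 higher and 35 of the 53 lower genes were called in RNA-seq, and 3 and 2 in 3'READS. Cpn1, Taldo1 and Fam96b rose, and Kif26b and Wdr61 fell, in both assays. These shares are no support for the list, which was chosen on the same ratios. The RNA-seq calls did not use the 3'READS ratios, but the limit to measured genes did use 3'READS reads, those of siSki8 included. Each assay also has a single siSki8 library, and the labels do not say whether both assays used RNA of the same culture. The shares that follow therefore describe how the assays moved together and are no independent check on siSki8. Of the 170 genes that rose in RNA-seq with the block and were measured in both assays, 153 (90.0%) lay above both controls in 3'READS, 2 lay below both, and 49 were 2-fold above. Of the 121 that fell, 105 (86.8%) lay below both controls, 2 above, and 50 were 2-fold below. Among all measured genes, 36.2% lay above and 30.9% below both controls in 3'READS.

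Among the higher genes were a ligand of the EGF receptor and an inhibitor of the same receptor. Areg (chr5:91568641-91577458) encodes amphiregulin, which is shed from the cell surface and activates the EGF receptor. It had 380 and 444 RNA-seq reads in siCtrl batch 1 and 2 and 2523 after siSki8, and 17, 34 and 179 reads in 3'READS. The controls lay close together in each assay, and siSki8 stood well above both. The level rose 6.91-fold and 4.92-fold over batch 1 and 2 in RNA-seq, and with the block by 2.30 on the log2 scale (SE 0.29, edgeR adjusted p = 6.38e-06). The 3'READS ratios were 7.98 and 6.33, and the gene did not pass there in edgeR (adjusted p = 0.0594 with the block). Most Areg ends in each library were at 1 site (14, 25 and 164 reads), and its window is shown because the 3'READS reads of the gene rest on that end (chr5:91577426-91577455, plus strand, signal in capitals).
Areg main site: tttatagctcATTAAActttttttaaacaa

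Errfi1 (Mig6), which binds the EGF receptor kinase and shuts it off, had 1141 and 801 RNA-seq reads in the controls and 2717 after siSki8. Its 3'READS reads were 69, 157 and 330, and siSki8 was above both controls in each assay. It rose by 1.65 on the log2 scale in RNA-seq with the block (SE 0.29, edgeR adjusted p = 0.000741) and did not pass in 3'READS (adjusted p = 0.199 in edgeR). Of the 14 EGF ligands, receptors and regulators listed, 6 were measured, and Areg and Errfi1 were the 2 past the limit (0.821% of all genes were). Hbegf, another ligand, was higher in all 4 ratios with a smallest log2 ratio of 0.24, and the receptor Egfr was lower in all 4, at -0.72 and -0.002 in RNA-seq and -0.007 and -0.18 in 3'READS.

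Cpn1 (chr19:44030797-44061046, minus strand), the catalytic subunit of carboxypeptidase N, which trims basic residues from the ends of circulating peptides, had the largest smallest-of-4 ratio among the higher genes, 2.63 on the log2 scale. RNA-seq counted 4 and 82 reads in the controls and 601 after siSki8, and 3'READS 1, 25 and 259. The controls were far apart in both assays, with batch 1 almost without Cpn1, and siSki8 was above both. Against siCtrl of the same batch it was 6.34-fold higher (5.03 to 8.09) in RNA-seq and 12.5-fold higher (8.26 to 19.6) in 3'READS, and with the block the adjusted p in edgeR was 0.000122 and 0.0275. In RPKM Cpn1 went from 0.164 and 3.82 to 20.0, close to the median siCtrl level of all measured genes (20.3). Nearly all its ends, 258 of 259 after siSki8, were at the site whose window is shown (chr19:44030798-44030827, minus strand).
Cpn1 main site: cagcATTAAAggagtccgaatcttctagaa

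Several other leading genes encode enzymes of metabolism. Taldo1, transaldolase of the pentose phosphate pathway, had 475 and 612 RNA-seq reads in siCtrl and 3888 after siSki8, and 116, 134 and 543 in 3'READS. The controls were alike and siSki8 stood above them in both assays, with ratios of 8.52 and 5.50 in RNA-seq and 3.55 and 4.88 in 3'READS. Taldo1 rose in both assays with the block, by 2.47 on the log2 scale (SE 0.28, edgeR adjusted p = 1.04e-06) and by 2.11 (SE 0.36, adjusted p = 0.0275). Uck2, which phosphorylates uridine and cytidine for nucleotide salvage, went from 1501 and 1991 to 8150 RNA-seq reads and from 86 and 113 to 261 in 3'READS. Fam96b, a factor of cytosolic iron-sulphur cluster assembly, went from 253 and 316 to 939 and from 272 and 305 to 1114. Both were above the 2 controls in each assay, and Fam96b rose with the block by 1.13 (SE 0.32, edgeR adjusted p = 0.0356) and 2.19 (SE 0.37, adjusted p = 0.0275). Mttp, which loads lipid onto lipoproteins, was lower in level, at 2.72 and 2.96 RPKM in the controls and 6.26 after siSki8. It had 132, 126 and 374 RNA-seq reads and 31, 45 and 105 in 3'READS.

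The remaining leading genes have roles in protein turnover, membrane traffic and the cytoskeleton. Spop, a substrate adaptor of a cullin 3 ubiquitin ligase, had 507 and 462 RNA-seq reads in the controls against 1646, and 64 and 180 against 450 in 3'READS. Snx5, a sorting nexin of endosomes, had 1849, 2255 and 7690 reads in siCtrl batch 1, siCtrl batch 2 and siSki8 of RNA-seq and 180, 501 and 1147 in 3'READS. For both genes the siSki8 library was the highest of the 3. Stmn2, a stathmin that destabilizes microtubules, had 742, 1256 and 5275 reads in RNA-seq. In 3'READS its 40, 486 and 1109 reads separated the controls further than siSki8 from batch 2, so the ratio was 21 over batch 1 but 2.75 over batch 2. Ccbe1, a secreted protein needed for lymphatic vessel growth, went from 40 and 41 to 152 reads in RNA-seq and from 58 and 102 to 239 in 3'READS, and did not pass in edgeR with the block in either assay (adjusted p = 0.0696 and 0.157). The gene listed as 2700060E02Rik went from 393 and 615 to 2656 reads and from 604 and 940 to 2208. Of these 5 genes, the others (Spop, Snx5, Stmn2 and 2700060E02Rik) rose in RNA-seq with the block (edgeR adjusted p between 0.000226 and 0.00141), and none passed in 3'READS (0.0984 to 0.250).

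Of the higher genes outside the rule for leading genes, the following were picked after their values were seen. Itgb1, the beta 1 chain of integrins, had 9066, 8429 and 19825 reads in RNA-seq and 569, 2260 and 3844 in 3'READS. Eif4a1, the helicase of translation initiation, had 807, 3365 and 8492 and then 54, 87 and 226. Has1, a hyaluronan synthase, had 241, 377 and 879 and then 42, 54 and 142. In each of these the siSki8 library was the highest in both assays, while the controls of Eif4a1 in RNA-seq and of Itgb1 in 3'READS differed more from each other than siSki8 did from batch 2. Reads of Eif4a1 may be shared with close copies in the genome, which the authors' unique mapping would discard.

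The lower genes described next encode secreted proteins, a grouping made after the genes were seen and not tested. Fbln5, which organizes elastic fibres, had 1446 and 968 RNA-seq reads in the controls and 324 after siSki8, and 554, 515 and 100 in 3'READS. The controls were near each other and siSki8 was below both in each assay. Its level fell 3.45-fold (3.04 to 3.93) against the same batch in RNA-seq, a log2 change of -1.87 with the block (SE 0.36, edgeR adjusted p = 0.00163). In 3'READS the same comparison gave 4.28-fold (3.45 to 5.36), with an adjusted p of 0.0538 in edgeR. Sulf2, which removes sulphate from heparan sulphate chains outside the cell, had 1545, 576 and 168 RNA-seq reads and 212, 136 and 30 in 3'READS. Batch 1 was the highest in both assays and siSki8 the lowest.

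C1qtnf3, a secreted relative of adiponectin, had 228, 205 and 65 reads in RNA-seq and 45, 92 and 16 in 3'READS. Gpx3, the secreted glutathione peroxidase, had 146, 105 and 23 and then 702, 623 and 168. Figf, the growth factor VEGF-D, had 184, 149 and 57 and then 72, 165 and 18. For all 3 genes the controls were within 2-fold of each other and siSki8 was below both. With the block each fell in RNA-seq (edgeR adjusted p = 0.0106 for C1qtnf3, 0.014 for Gpx3 and 0.0124 for Figf) and none passed in 3'READS, where Figf was nearest to the threshold (adjusted p = 0.0538). Other lower genes of this kind were Emilin1 (88, 118 and 26 RNA-seq reads, 143, 353 and 68 in 3'READS), a glycoprotein of elastic fibres, and Ogn (415, 268 and 120, then 679, 833 and 281), a small proteoglycan. Col16a1, a minor fibril-associated collagen, had 499, 321 and 104 and then 147, 203 and 68. These were likewise below both controls in each assay, and in the blocked fit of RNA-seq Emilin1, Ogn and Col16a1 fell (edgeR adjusted p = 0.0116, 0.0284 and 0.00163).

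Tmem119 (chr5:114243738-114250525, minus strand), a membrane protein that promotes osteoblast differentiation, had 384 and 278 RNA-seq reads in the controls and 72 after siSki8. In 3'READS it had 353, 429 and 112 reads, all at 1 site. The controls differed little in either assay, and siSki8 was below both. The level fell 5.12-fold and 4.46-fold in RNA-seq against batch 1 and 2 (intervals 3.97 to 6.68 and 3.43 to 5.87), with a log2 change of -2.05 with the block (SE 0.39, edgeR adjusted p = 0.00163). In 3'READS the level was 4.16-fold and 3.18-fold lower and did not pass in edgeR (adjusted p = 0.105 with the block). In RPKM it went from 25.6 and 21.1 to 3.90. The window of its only site (chr5:114243739-114243768, minus strand) is shown beside that of Kif26b (chr1:180754971-180755000, plus strand), whose main end is not in its last exon.
Tmem119 site: cactagcatAATAAAtcttgatctggcttg
Kif26b intronic site: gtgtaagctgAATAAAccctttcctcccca

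Kif26b (chr1:180459256-180862986, plus strand), an unusual kinesin that binds microtubules, had the largest smallest-of-4 ratio of the lower genes, -3.36 on the log2 scale, although Wdr61 fell further against siCtrl of batch 2. RNA-seq counted 172 and 55 reads over its coding region in the controls and 4 after siSki8, and 3'READS 159, 148 and 10. Both assays put siSki8 far below the controls, which were apart in RNA-seq and close in 3'READS. The fall was 15.9-fold (5.87 to 60.4) in RNA-seq and 12.3-fold (6.5 to 26.2) in 3'READS against siCtrl of the same batch. With the block the log2 changes were -3.88 (SE 0.74) and -3.56 (SE 0.60), with edgeR adjusted p = 0.00163 and 0.0275. Most of its 3' ends, 147, 131 and 7 reads, were at the intronic site shown, and the sites past its last annotated exon had at most 11 reads each. Kif26b was low in level throughout, at 1.52 and 0.556 RPKM in the controls and 0.029 after siSki8.

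Other leading lower genes encode receptors and signalling proteins. Lrp4, the agrin receptor of the neuromuscular junction and a modulator of Wnt signals, had 887 and 201 RNA-seq reads in the controls and 80 after siSki8, and 71, 78 and 22 in 3'READS. The controls of RNA-seq were further apart than siSki8 was from batch 2, and those of 3'READS were close. Rapsn, which clusters acetylcholine receptors at the same junction and was picked after its values were seen, had 806, 915 and 329 and then 231, 199 and 80. Trp53inp1, a p53 target, had 261, 86 and 33 reads in RNA-seq and 465, 791 and 197 in 3'READS. Arhgap33 had 379, 171 and 54 and then 263, 196 and 54. Ptprv, a receptor-type tyrosine phosphatase, had 111, 113 and 37 and then 81, 69 and 14. In each of these 5 genes siSki8 was the lowest library in both assays, each fell in RNA-seq with the block (edgeR adjusted p between 0.00168 for Rapsn and 0.025 for Ptprv), and none passed in 3'READS.

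**Figure D3:**
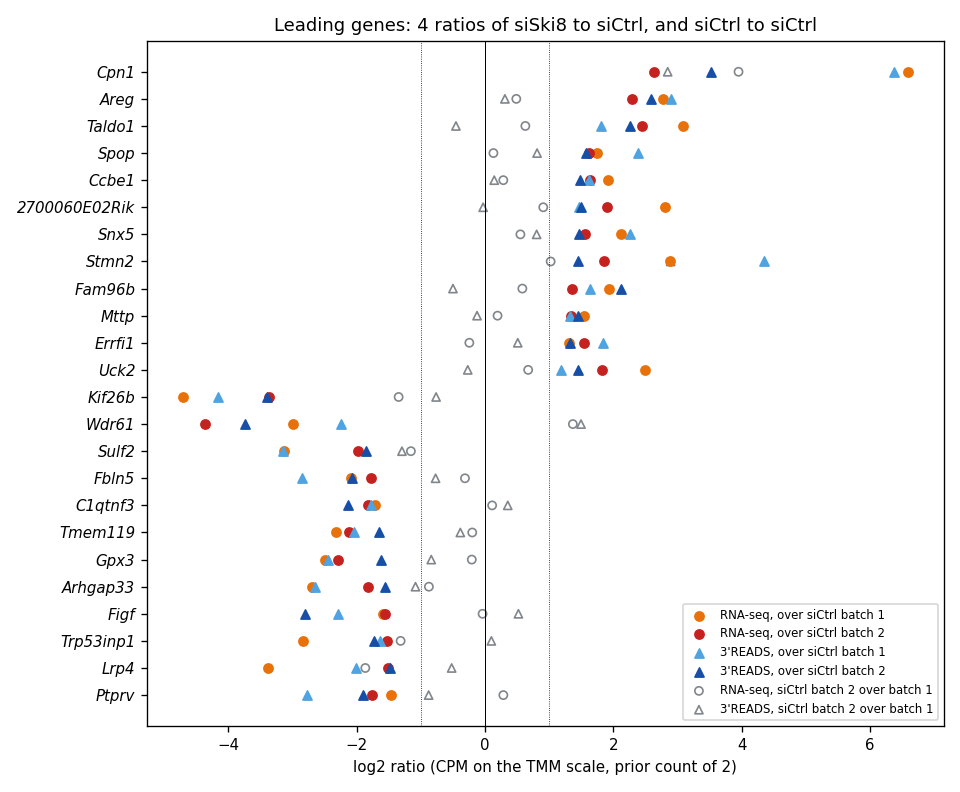
The 12 higher and 12 lower genes with the largest smallest-of-4 ratio (vertical axis) and their log2 ratios (horizontal axis): filled circles are RNA-seq and filled triangles 3'READS, over siCtrl batch 1 or batch 2. Open grey symbols are siCtrl batch 2 over batch 1; they lie nearer to 0 than the filled symbols for Areg and Tmem119, and far from 0 for Cpn1, Stmn2, Wdr61 and Lrp4.

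The limit of 2-fold cut through a continuous range. Dlgap1 and Tspan15 were just inside it on the higher side, with smallest log2 ratios of 1.003 and 1.001, and Fdft1 and Ybx3 just outside, with 0.98 each. On the lower side Htra3 and Srpx2 were just inside (-1.018 and -1.016), and Selm and Sort1 just outside (-0.9996 and -0.993). Selm, a selenoprotein of the endoplasmic reticulum, had 1310, 1559 and 628 reads in RNA-seq and 1097, 1394 and 278 in 3'READS. It fell in both assays with the block (edgeR adjusted p = 0.00284 and 0.0466), although it was not counted among the 53.

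Of the other subunits of the complexes that contain Ski8, Paf1, Cdc73 and Ctr9 were tested in both assays and Leo1, Rtf1 and Skiv2l in 3'READS only, and none of these was called with or without the block. Paf1, the subunit that names the nuclear complex, had 764, 950 and 1236 RNA-seq reads in siCtrl batch 1, siCtrl batch 2 and siSki8 and 130, 178 and 157 in 3'READS. Cdc73 had 782, 585 and 860 and then 43, 107 and 114, and Ctr9 1233, 1257 and 1874 and then 1509, 1226 and 997. Against siCtrl batch 2 their log2 ratios in RNA-seq were 0.17, 0.35 and 0.37, with edgeR adjusted p of 0.815, 0.800 and 0.399 with the block. In 3'READS, Leo1 had 32, 107 and 116 reads and Rtf1 191, 390 and 410, and siSki8 was close to batch 2 for both. RNA-seq values of Leo1, Rtf1, Skiv2l and Ttc37 were not analysed here.

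The Ski complex helicase Skiv2l had 20, 50 and 52 reads in 3'READS, also close to batch 2, and Ttc37 had 1, 4 and 0, too few to test. Hbs1l, which works with the Ski complex at stalled ribosomes, and Aven were higher in all 4 ratios, with smallest log2 ratios of 0.40 and 0.34. Hbs1l, Aven and the ribosome rescue factor Pelo did not pass in either assay with the block. Of the RNA exosome and its partners, 9 genes were measured and 0 were past the 2-fold limit. Rbm7, of the nuclear exosome targeting complex, had 914, 1267 and 3167 reads in RNA-seq and rose with the block (edgeR adjusted p = 0.0091). Its 4, 29 and 36 reads in 3'READS were too few to settle a difference.

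Pathway lists were described by their measured members, beside the shares of all 4748 genes that passed the limit (0.821% higher, 1.12% lower) and their medians. The median log2 ratio of all measured genes was 0.03 and 0.07 in RNA-seq, over siCtrl batch 1 and 2, and 0.12 and 0.01 in 3'READS. Of 9 osteoblast and BMP genes measured, 2 were past the limit, both lower: Tmem119 and Smad9. Smad9, a SMAD of the BMP pathway, had 80, 12 and 2 reads in RNA-seq and 98, 47 and 15 in 3'READS. Id3 and Grem1 were also lower in all 4 ratios, with smallest log2 ratios of -0.87 and -0.21. Spp1 and Msx2 were higher in all 4, with 0.79 and 0.49. The medians of the 9 genes were -2.26 and -0.56 in RNA-seq and 0.56 and -0.21 in 3'READS. Of 12 p53 targets, Trp53inp1 was past the limit, and Zmat3, Sesn2, Cdkn1a and Eda2r were also lower in all 4 ratios, with smallest log2 ratios of -0.71, -0.39, -0.33 and -0.25, while Ccng1 was higher in all 4 with 0.15 (17.6% and 21.8% of all genes were lower and higher in all 4). Of 6 Wnt pathway genes, Tcf7l2, a DNA-binding partner of beta-catenin, was past the limit with 253, 128 and 59 and then 33, 37 and 12 reads. With the block, Tmem119 and Id3 fell and Spp1 rose among 9 osteoblast and BMP genes tested in RNA-seq, Trp53inp1 and Sesn2 fell among 12 p53 targets, and Sfrp2, a secreted Wnt antagonist, fell among 13 Wnt genes, against 2.5% lower and 2.93% higher of all genes. Tcf7l2 did not pass (edgeR adjusted p = 0.0508).

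Matrix genes on the list moved in both directions. None of the 19 measured passed the 2-fold limit, and 4 were higher and 7 lower in all 4 ratios. Of all measured genes, 21.8% were higher and 17.6% lower in all 4. Spp1, osteopontin, had 63969, 60856 and 121988 RNA-seq reads and 2796, 4845 and 8125 in 3'READS, and siSki8 was the highest in each assay. Col6a1 and Col6a2, chains of collagen VI, were the lowest in siSki8 in both assays, with 2655, 1005 and 585 and with 823, 489 and 321 RNA-seq reads. Over all genes tested in RNA-seq, 2.93% rose and 2.5% fell with the block. In RNA-seq with the block 5 of 20 matrix genes tested rose: Spp1 (edgeR adjusted p = 0.0353), the crosslinking enzyme Lox (0.0446), the glycoprotein Thbs1 (0.0091) and the protease inhibitors Timp1 (0.047) and Timp3 (0.0378). Col6a1 (adjusted p = 0.04 in edgeR), the proteoglycan Dcn (0.000693) and Postn (0.00273) fell. Lox and Thbs1 lay below siCtrl batch 1 in RNA-seq (log2 ratios of -0.57 and -0.28) and above batch 2 (0.75 and 1.06). Spp1, Timp1 and Timp3 lay above both controls there, and Col6a1 below both. Postn had -0.19 and -1.94 over batch 1 and 2 in RNA-seq, but 1.92 and -1.71 in 3'READS. In 3'READS 0 passed in edgeR with the block or without it, with 3 higher and 0 lower at an unadjusted p under 0.05 without it.

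Of 8 genes of cholesterol synthesis measured, 0 were past the limit and 4 were higher in all 4 ratios: Fdft1, Insig1, Sqle and Cyp51, with smallest log2 ratios of 0.98, 0.73, 0.67 and 0.26. Of all measured genes, 21.8% were higher in all 4. Sqle, the squalene epoxidase, had 2138, 3985 and 8043 RNA-seq reads and 1671, 2819 and 3730 in 3'READS. The 8 genes had medians of 1.05 and 0.83 in RNA-seq and 0.09 and 0.74 in 3'READS, and Cyp51, Fdft1, Fdps and Sqle rose in RNA-seq with the block (edgeR adjusted p between 0.000741 and 0.0422). Over all genes tested in RNA-seq, 2.93% rose with the block. In 3'READS none of the 19 genes of cholesterol synthesis tested passed. Of 24 immediate early genes, 10 were measured and 0 were past the limit. Myc had 1811, 1703 and 3452 reads in RNA-seq and 23, 44 and 159 in 3'READS, the siSki8 library being the highest in each (edgeR adjusted p = 0.262 and 0.0865 with the block).

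Among genes of RNA processing, of 20 splicing factors measured, 8 were higher and 0 lower in all 4 ratios, with medians of 0.61 and 0.34 in RNA-seq and 0.53 and 0.25 in 3'READS. Of 11 cleavage and polyadenylation factors, 5 were higher and 0 lower, led by Clp1 and Cstf3 with smallest log2 ratios of 0.59 and 0.58. These medians depended on the scaling in RNA-seq. With each gene's log2 ratios averaged over both controls, the median for cleavage factors went from 0.32 to -0.02 on library size alone. For splicing factors it went from 0.52 to 0.18. Cstf3 rose in RNA-seq with the block (edgeR adjusted p = 0.0411), and no other listed cleavage factor was called. Of the splicing factors 1 was called, Srsf3, which fell in RNA-seq (edgeR adjusted p = 0.0423 with the block). In 3'READS Srsf3 was above both controls, with log2 ratios of 0.47 and 0.10 over batch 1 and 2. Of all genes tested in RNA-seq, 2.93% rose and 2.5% fell with the block, and lists this small cannot be told from those shares. Of 14 ribosomal protein genes 6, and of 15 genes of oxidative phosphorylation 5, were higher in all 4 ratios, with 0 lower in either list. With ratios averaged over both controls, their medians in RNA-seq went from 0.72 to 0.38 and from 0.78 to 0.44 on library size alone. Over all measured genes, 21.8% were higher and 17.6% lower in all 4 ratios. Of 10 muscle regulators and contractile genes measured, 0 had the same sign in all 4 ratios, and their medians were 1.43 over batch 1 and 0.03 over batch 2 in RNA-seq. Of 19 muscle genes tested in RNA-seq, Myh1, a fast myosin heavy chain, rose and Pax7, a factor of muscle stem cells, fell with the block (edgeR adjusted p = 0.00367 and 0.0422). The shares of all genes are the 2.93% and 2.5% given above. Scaling by library totals alone changed the sign of 8 of 44 list medians recomputed, so the directions of lists with medians near 0 depend on the scaling.

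The lower genes had a median level in siCtrl of 9.56 RPKM, against 25.8 for the higher genes and 20.3 for all measured genes, but the siCtrl libraries are also in the ratios that chose the genes, so this level is only a description. Coding sequence was not used in the choice. The coding region had a median GC content of 57.7% in the 52 lower genes with a value, 49.6% in 37 higher genes and 52.8% in all. When all genes were put into 5 groups of equal size by coding GC, the groups from lowest to highest held 2, 5, 7, 12 and 26 of the lower genes and 9, 12, 2, 11 and 3 of the higher genes. Median coding length was 1364 bases in lower genes, 1200 in higher genes and 1458 in all. The median number of poly(A) sites was 3 in each.

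The same gradient with GC ran through the ratios of all genes. From the lowest to the highest GC group, the median log2 ratio in RNA-seq went from 0.39 to -0.45 over siCtrl batch 1 and from 0.25 to -0.26 over batch 2. In 3'READS it went from 0.46 to -0.32 and from 0.07 to -0.15. The 2 controls also differed along it, from 0.14 to -0.20 in RNA-seq and from 0.35 to -0.21 in 3'READS. When each ratio was centred within its GC group, an alternative chosen after seeing the data, 27 genes were higher and 49 lower, with 23 and 40 of them among the original 39 and 53. The ratios also followed level and coding length. From the lowest to the highest of 5 groups by siCtrl RPKM the median in RNA-seq went from -0.44 to 0.68 over batch 1, from -0.08 to 0.21 over batch 2 and from -0.34 to 0.44 for control over control, and in 3'READS from -0.05 to 0.28 over batch 1 and from -0.10 to 0.15 over batch 2. From the shortest to the longest coding regions it went from 0.60 to -0.47 over batch 1, from 0.09 to 0.02 over batch 2 and from 0.54 to -0.47 for control over control in RNA-seq, and from 0.21 to 0.06 and 0.07 to -0.03 in 3'READS. Centred within groups of RPKM, also chosen after seeing the data, 31 genes were higher and 58 lower, with 26 and 49 among the original ones. Lists of high or short genes, such as ribosomal proteins, lie at 1 end of these gradients. The part of base composition, level and length in the remaining ratios was not tested.

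**Figure D4:**
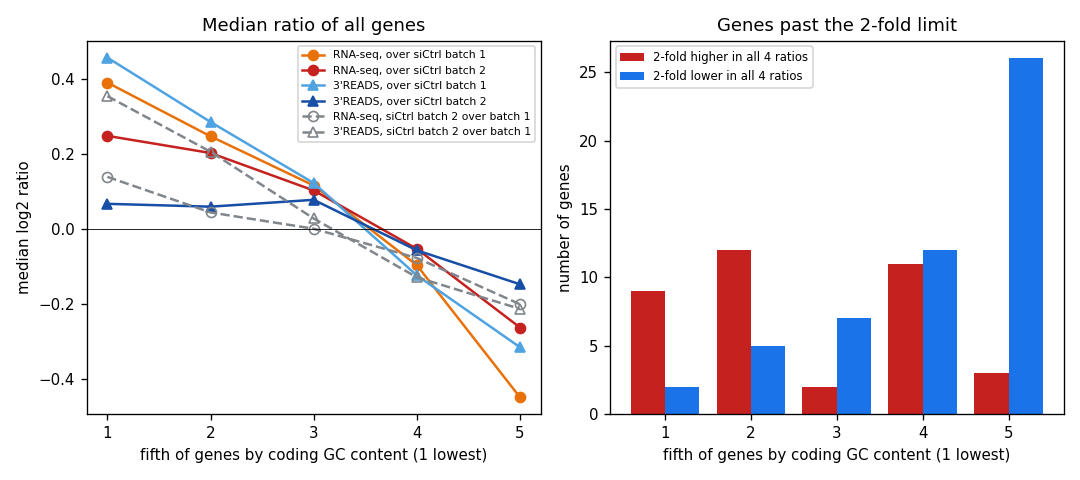
Left, the median log2 ratio of all measured genes (vertical axis) in 5 equal groups by GC content of the coding region (horizontal axis, 1 lowest) for the 4 ratios of siSki8 over siCtrl and, in grey, for siCtrl batch 2 over batch 1. Right, the number of the 39 higher and 53 lower genes in each group; 26 of the lower genes are in the highest one.

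The letters TTGCGTT, complementary to bases 2 to 8 of the siSki8 guide strand and the same 7 that are in capitals at the Wdr61 place, were searched on the sense strand of annotated 3'UTRs. They occurred in 94 of 4453 measured genes with a 3'UTR (2.11%), in 1 of 37 higher genes (Dlgap1, 2.70%) and in 0 of 50 lower genes. Over all 119 genes with the match in RNA-seq, the median log2 ratio over siCtrl batch 2 was -0.02, against 0.01 for all 6061 genes, and over batch 1 it was -0.30 against -0.01. In 3'READS it was -0.09 over batch 2 for 251 genes against 0.00 for 11814, and 0.01 against 0.01 over batch 1. In the siPaf1 and siCdc73 libraries the same genes had medians of -0.15 to -0.06 in RNA-seq, with a range of -0.12 to 0.05 in 3'READS.

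Across genes with 2 main sites in the last exon, the siSki8 library used proximal sites more than the controls. Over 4567 genes the proximal to distal ratio changed by a median of 0.26 on the log2 scale over siCtrl batch 1 and 0.46 over batch 2, and the ratio was higher in 55.9% and 68.0% of genes. For siCtrl batch 2 over batch 1 the median was -0.23, so the controls differed by an amount near the smaller of the 2 changes. At least 2-fold against both controls, the ratio was higher in 636 genes (13.9%) and lower in 193 (4.23%). In edgeR's test of the isoform by group interaction 0 genes passed without the block (53 and 5 at an unadjusted p under 0.05), and 14 with the block (0.307%), all towards the proximal site.

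Col5a1, a fibrillar collagen chain, moved far in relation to its controls. Its proximal site took 32.7% of reads in siCtrl batch 1 (exact 95% bounds 30.7 to 34.7), 43.1% in batch 2 and 72.8% after siSki8 (70.9 to 74.6). The controls were nearer to each other than to siSki8, which was above both. The proximal share of Sec22b, a SNARE of the early secretory pathway, was 17.3%, 52.1% and 86.3%. Sugt1, a co-chaperone of Hsp90, had 78.4%, 67.0% and 92.2%, and St13, a co-chaperone of Hsp70, had 18.7%, 10.9% and 33.8%. In each of these genes siSki8 had the highest share. Ufd1l and Ankle2, also among the 14, did not: their shares were 87.7%, 9.39% and 38.4%, and 84.3%, 47.4% and 82.9%, so that siSki8 lay between the controls.

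The windows before the proximal and distal sites of Col5a1 (chr2:27893015-27893044 and chr2:27894645-27894674, plus strand) and Sugt1 (chr14:80028754-80028783 and chr14:80030571-80030600, plus strand) are shown because these pairs shifted against both controls. The signal is in capitals, and the sites are 1631 and 1822 bases apart.
Col5a1 proximal: atggATTAAAggtgcttatgtttttgtgag
Col5a1 distal: ttacAATAAAattacttcttatatttgcag
Sugt1 proximal: gtactaAATAAAtcaatttgctatcactgt
Sugt1 distal: tataAATAAAtcgtatttttactgttcaac

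The genes with the largest changes of the same sign rested on few reads of 1 isoform. Phka2, a regulatory subunit of phosphorylase kinase, had 18, 25 and 0 distal reads beside 141, 169 and 84 proximal ones, and Cnot4, an E3 ligase tied to the CCR4-NOT deadenylase, 12, 19 and 0 beside 48, 39 and 35. Tnfrsf21, a death receptor, had 0, 0 and 5 proximal reads beside 79, 52 and 22 distal ones. In the other direction, Itgb7, an integrin chain, used its proximal site for 97.6% and 99.3% of reads in the controls and for 84.1% after siSki8. X99384 had 1, 6 and 0 proximal reads beside 12, 61 and 94 distal ones, and the proximal share of Pcbd2, a pterin dehydratase, was 68.2%, 17.8% and 2.99%. None of these 6 passed in edgeR, with the block or without it.

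**Figure D5:**
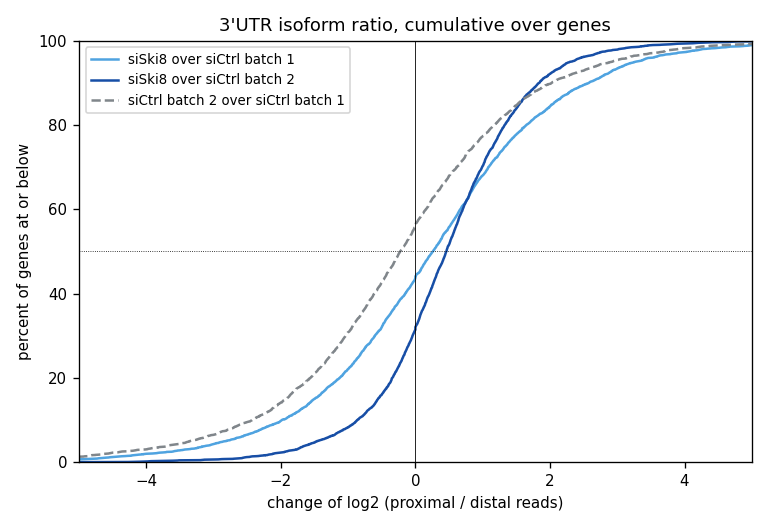
Cumulative percent of 4567 genes (vertical axis) at or below a given change of the log2 proximal to distal ratio (horizontal axis). The curves of siSki8 over siCtrl batch 1 (light blue) and batch 2 (dark blue) lie to the right of 0 at 50%, with medians of 0.26 and 0.46, and that of siCtrl batch 2 over batch 1 (dashed) to the left, with a median of -0.23.

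Ends in introns and internal exons showed no shift of the same sign against both controls. Over 1766 genes the median log2 change of internal over last-exon reads was -0.37 over siCtrl batch 1 and 0.01 over batch 2, and -0.31 for control over control. The ratio was at least 2-fold higher against both controls in 179 genes (10.1%) and lower in 245 (13.9%). With the block 1 gene rose, Wdr61, and 1 fell (0.0566% each). The gene that fell was Il12rb1, a subunit of the interleukin 12 receptor, whose internal ends made up 73.8% and 69.7% of reads in the controls and 5.71% of 35 reads after siSki8 (edgeR adjusted p = 0.0322). Upstream antisense sites took 0.160% and 0.138% of reads in the controls and 0.141% after siSki8.

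Knockdown of the other Paf1 complex subunits was measured against the same siCtrl libraries, so its ratios are not independent of those above and are given as values only. For Taldo1 the log2 ratios in RNA-seq were 2.14 and 2.02 after siPaf1 and 2.37 and 2.40 after siCdc73 (batch 1 and 2, each over siCtrl of its batch), beside 3.08 and 2.45 after siSki8. Mttp had 2.21 and 1.84, then 3.07 and 2.69, beside 1.54 and 1.35. Areg had 1.12 and 1.04, then 1.18 and 1.26, beside 2.78 and 2.29. For these 3 genes all values were above 0.

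Cpn1 had -0.22 and -1.53 after siPaf1 and 0.94 and -0.56 after siCdc73 in RNA-seq, beside 6.59 and 2.63 after siSki8. Ccbe1 had -1.73 and -2.05, then -1.77 and -1.17, beside 1.92 and 1.63. Uck2 lay between -0.43 and 0.55 after the other knockdowns, beside 2.50 and 1.82. Among the lower genes, Kif26b was also below siCtrl after both other knockdowns. It had -0.89 and -0.78 after siPaf1 and -2.24 and -2.87 after siCdc73, beside -4.70 and -3.36 after siSki8. In 3'READS Kif26b had -2.98 and -2.98, then -1.62 and -1.81, beside -4.16 and -3.40. In RNA-seq, Tmem119 had -0.25, -0.83, -0.77 and -0.83, beside -2.32 and -2.12. Fbln5 had 0.30 and 1.11 after siPaf1 and -2.11 and -2.52 after siCdc73, beside -2.09 and -1.78. Figf lay between -0.82 and 0.27, beside -1.59 and -1.55. For 3'UTR-APA the median changes were 0.16 and 0.38 after siPaf1 and 0.36 and 0.42 after siCdc73. For CDS-APA they were 0.55 and 0.80, then 1.02 and 1.03.

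Markers of other cell types were mostly low in reads or without values. None of the 8 macrophage, 7 adipocyte, 6 endothelial and 7 epithelial markers listed was measured in both assays. Only 2, 4, 2 and 3 of them, in that order, had RNA-seq values. The others could not be measured in both assays, whatever their level. The macrophage list summed to 0.419, 0.168 and 0.146 CPM in siCtrl batch 1, siCtrl batch 2 and siSki8 of RNA-seq and to 8.70, 3.78 and 2.50 in 3'READS, with Itgam and Tyrobp at 0 in each library where listed. The epithelial list summed to 0.419, 1.01 and 8.73 CPM in RNA-seq, nearly all from the keratin Krt8 with 1, 6 and 57 reads, and to 1.35, 0.567 and 4.44 in 3'READS. The adipocyte list summed to 48.2, 70.5 and 140 CPM in RNA-seq, mostly from Pparg, and to 8.55, 12.5 and 6.26 in 3'READS. The endothelial list stood at 0.140, 1.18 and 0.582 and at 25.4, 29.1 and 3.87, the latter mostly Kdr. In bulk RNA, fewer cells of a type and less RNA per cell cannot be told apart.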

How the data were processed

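RNA-seq and 3'READS of C2C12 myoblasts were analysed from the tables of the series. For RNA-seq the authors used the mm9 genome, with alignment by Bowtie2 per the submitters' processing notes (version not given in the sources used here), and deposited raw counts of uniquely mapped reads in the coding part of RefSeq transcripts, together with RPKM values, which are scaled by length and mapped reads. For 3'READS the authors deposited, per poly(A) site, counts of uniquely mapped reads that carried extra Ts not found in the genome. Unique mapping leaves out reads of near-identical genes. RNA-seq libraries were strand-specific and made after rRNA removal, while 3'READS counts only polyadenylated ends.

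In RNA-seq 1 transcript stood for each gene, that with the most reads on average, and in 3'READS a gene was the sum of its sites other than upstream antisense ones. There were 15033 transcripts of 9999 genes in RNA-seq and 59578 sites of 15777 genes in 3'READS. Totals of the 7 libraries ranged from 2796693 to 8160386 in RNA-seq and from 5290791 to 14311581 in 3'READS. A gene with 20 reads is known only to within a wide counting interval, so small genes limit the ratios. Counts were fitted in R 4.3.3 with edgeR 4.0.16 (TMM, low-count filter, quasi-likelihood test, Benjamini-Hochberg adjustment over all genes tested, adjusted p under 0.05) over all 7 libraries of an assay, with DESeq2 1.42.0 as an alternative and data.table (version 1.17.8). Scripts were tested on simulated data. Ratios, sites and intervals were computed in Python 3.11.15 (scipy 1.17.1, pandas 2.3.3, numpy 2.4.6), and figures drawn in matplotlib 3.10.9. Intervals of folds and shares are exact and at 95%.

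The first fit had no batch term. The study's methods describe no fitted model of gene counts, and their rule (1.4-fold with Fisher's exact test) is an alternative here. The labels mark a shared batch, and batch differences correlated across genes between groups (r of 0.620, 0.748 and 0.633 in RNA-seq, 0.433, 0.610 and 0.432 in 3'READS), so the batch pairs the libraries and the blocked fit is given beside the first. For APA, sites under 5% of a gene's reads were left out, genes needed a mean of 20 reads per library, and 0.5 was added to both isoforms. Exons, 3'UTRs and sequences came from the NCBIM37 (mm9) reference.

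The genes, lists and tests were chosen with earlier results of these data known. Named genes are Wdr61, Areg and Tmem119, subunits of the Paf1 and Ski complexes, the 12 genes in each direction with the largest smallest-of-4 ratio and a mean of at least 50 reads in each assay, the 2 genes nearest the limit on each side, list members past the limit or leading their list, and the 3 largest APA changes in each direction. Any other gene was named after its values were seen.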

Additional observations from a re-analysis of the deposited data

How the results depend on the processing

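The genes past 2-fold in all 4 ratios numbered 39 higher and 53 lower. At a limit of 1.4-fold they were 241 and 268, and on library size alone 17 and 84, of which 15 and 51 were among the original genes. A mean of at least 50 reads gave 32 lower genes and one of at least 5 reads 94. Leaving out 1 siCtrl library gave 82 (without batch 1) to 246 (without batch 2) higher and 118 to 229 lower genes. Where edgeR called 0 genes in RNA-seq, no low-count filter gave 1, DESeq2 5, the siCtrl and siSki8 libraries alone 16, the replicate block 354, the block on library size alone 481 (an alternative chosen after seeing the data), and the study's rule of 1.4-fold with Fisher's exact test 3173, which takes no account of spread between libraries. The Fisher rule was computed here on the 2 controls pooled and on library totals. In RNA-seq it gave 657 higher and 2516 lower genes, with a median log2 ratio of -0.42 over all genes, so its directions also depend on the scaling. In 3'READS the block gave 19, the block on library size alone 48 and the Fisher rule 4537. For 3'UTR-APA the block gave 14. Without each library in turn, RNA-seq gave 0 to 1036 calls and 3'READS 0 to 436, where the unblocked fits gave 0 throughout, and the highest counts came without siPaf1 batch 2. The cause was not tested. Library size alone moved the median of all RNA-seq genes to -0.37 without the block and -0.23 with it. The block changed no direction among 64 fits of 32 leading or near-limit genes, and 34 of them then passed. These genes were chosen for ratios of the same sign in the same counts, so neither number is support for them. The APA medians without 1 control are those given against each control, 0.26 and 0.46 for 3'UTR-APA and -0.37 and 0.01 for CDS-APA. Depth limits the ratios of genes near 20 reads and the internal ends of Wdr61.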

Other observations

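With the batch as a block, edgeR called further genes in 3'READS, of which the following were picked after their values were seen. RNA-seq values of Tead4, Hspb1 and Adrb1 were not analysed here. Tead4, a transcription factor of the Hippo pathway, had 39 and 20 reads in siCtrl batch 1 and 2 and 404 after siSki8 and rose (24.3-fold over batch 2, counting interval 15.5 to 40.2). Hspb1, a small heat shock protein, had 952, 3314 and 9505 reads and rose. Kdr, the VEGF receptor, fell in 3'READS, with 148, 292 and 20 reads, while RNA-seq had 0, 2 and 0 reads over its coding region. Adrb1, the beta 1 adrenergic receptor, fell as well, from 401 and 613 to 97 reads. Against the same controls, each over siCtrl of its batch, the log2 ratios in 3'READS after siPaf1 and siCdc73 (batch 1 and 2) were 1.6, 1.08, 2.51 and 2.64 for Tead4 and 1.68, 0.94, 1.76 and 1.55 for Hspb1. They were -3.01, -0.90, -2.44 and -2.21 for Kdr and -1.70, -2.42, -2.95 and -3.29 for Adrb1.

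Gsta4, a glutathione transferase, rose in both assays with the block (edgeR adjusted p = 0.000193 in RNA-seq) but was not past the limit in all 4 ratios. It had 1045, 1608 and 6587 reads in RNA-seq and 490, 350 and 1239 in 3'READS, where its log2 ratios after siPaf1 and siCdc73 were 0.04, -0.98, 1.58 and 1.98.

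Of 15 mitosis genes and 13 DNA replication genes measured in both assays, 0 passed the 2-fold limit and 0 were called in either assay with the block in edgeR, nor did any pass an unadjusted p under 0.05 without it. With 0.821% of all genes higher and 1.12% lower, lists of this size are too small to be told from all genes by such counts. Of 9 genes of the integrated stress response, 0 passed the limit, and in RNA-seq with the block Asns, asparagine synthetase, rose and Sesn2 fell. Among NF-kB and cytokine genes Ptgs2, the inducible cyclooxygenase, rose and Csf1, a macrophage growth factor, fell in RNA-seq with the block. The RNA-seq log2 ratios over siCtrl batch 1 and 2 were -0.003 and 1.29 for Ptgs2, and -2.02 and -0.87 for Csf1. Of all genes tested in RNA-seq, 2.93% rose and 2.5% fell with the block. Of 7 YAP-TEAD targets measured, 3 were lower in all 4 ratios (Crim1, F3 and Amotl2, with smallest log2 ratios of -0.26, -0.18 and -0.09) and 0 were called. Among all measured genes 17.6% were lower in all 4, and lists this small cannot be told from that share.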
